A study of Mus musculus with 11 samples.

Results

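The alarmin group of the epidermis was followed through 10 genes in sorted keratinocytes (KCs) and dendritic epidermal T cells (DETCs) of mice with and without Langerhans cells (LCs). The members were taken as a named list and matched by Ensembl identifier to the 52550 genes of the deposited table. They are the ligands Tslp, Il33, Il18, Il1a and Il1b, the IL-1 receptor antagonist Il1rn, and the receptor chains Crlf2, Il1rl1, Il18r1 and Il1rap. All 10 were found, and 9 of them were among the 14419 genes that passed the filter on low values, a CPM above 1 in at least 2 libraries. Il1b did not pass it.

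LC-/- mice were huLangerin-DTA animals, in which the human langerin promoter drives diphtheria toxin subunit A and LCs are lacking from birth, and the WT mice were their littermates without the transgene. All were females 8 weeks old, without any treatment, and flank epidermis was taken. KCs were sorted as live cells negative for MHC-II, CD45, langerin and c-kit, and DETCs as CD45+ cells negative for the other 3 markers. There were 3 WT and 3 LC-/- KC libraries and 3 WT and 2 LC-/- DETC libraries, written W1 to W3 and L1 to L3 in the order of the numbers in their titles, and L1 had a KC library alone.

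Alarmins are cytokines that barrier cells hold ready or make quickly, and that reach immune cells when the barrier is damaged. TSLP signals through Crlf2 paired with the IL-7 receptor alpha chain (Il7r). IL-33 signals through ST2, the product of Il1rl1, and IL-1α and IL-1β through Il1r1, and both receptors need the shared chain Il1rap. IL-18 signals through Il18r1 with Il18rap. The antagonist IL-1Ra (Il1rn) occupies Il1r1 without signalling, Il1r2 is a decoy receptor, and Il18bp captures IL-18. In skin, KCs are a known source of TSLP, IL-33 and IL-1α, while DETCs are the resident γ/δ T cells that lie between them.

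Values are normalized counts, which are reads per gene divided by a size factor of the library, and the reads assigned to genes numbered 13491075 to 19750440 per library. With 0 reads, counting error alone allows up to 3 reads, or 0.152 to 0.222 CPM. Cd207, which encodes langerin, lay between 6.15 and 26.9 in WT KC libraries and at 0 in the LC-/- KC libraries, and between 16.5 and 46.7 in WT DETC libraries against 0 and 4.42 in the LC-/- DETC libraries. The 24 keratinocyte markers summed to 799004 to 857685 in KC libraries and to 134775 to 224472 in DETC libraries. The 20 DETC and T cell markers summed to 294737 to 322703 in DETC libraries and to 360.4 to 672.5 in KC libraries, most of the latter being Thy1. For each number that had both libraries, the DETC count as a percent of the KC count had a median over the keratinocyte list of 15.3% in W1, 15.4% in W2, 18.1% in W3, 25.5% in L2 and 16.3% in L3. This value is called the keratinocyte share below, and single genes of the list ranged from 5.0% to 64.6%. In the other direction the T cell list had a median of at most 0.0209% in any of these KC libraries, and apart from Thy1 no gene of it exceeded 0.153%. Of the 9 genes of the mast cell list, Cpa3, Mcpt4, Tpsb2, Fcer1a and Ms4a2 were at 0 in all 11 libraries, while Kit, Mrgprb2 and Hdc passed the filter. The list summed to 30.8 to 48.3 in KC libraries and to 325.1 to 602.9 in DETC libraries. A list of 12 genes for dermal γ/δ T17, innate lymphoid and α/β T cells summed to 11870 to 17654 in DETC libraries, with no gene at 0 in either genotype. In KC libraries these 12 summed to 6422 to 7584. The sort used no T cell receptor marker, so transcripts of such other CD45+ cells cannot be told apart from those of DETCs. In bulk libraries, more cells of a type and more RNA per cell cannot be told apart.

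Which population held each ligand was asked first. In WT mice Tslp, Il33, Il1a and Il1rn were higher in KCs, together with the receptor chain Il1rap, and Crlf2, Il1rl1 and Il18r1 were higher in DETCs. Il18 did not pass the test. That made 8 of 9 tested members different between the WT populations by limma, with adjusted p over all 14419 genes, where 76.0% of all genes differed. Il1rl1, 1 of the 8, had at most 4 reads in any KC library and passed the filter through the DETC libraries alone. Its direction was thus fixed by the filter. In LC-/- mice the same 8 members differed in the same directions, against 70.2% of all genes. The median log2 difference of the members, DETC minus KC, was -1.79 in WT and -1.55 in LC-/- libraries, beside 0.07 and 0.08 over all tested genes.

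**Figure D1:**
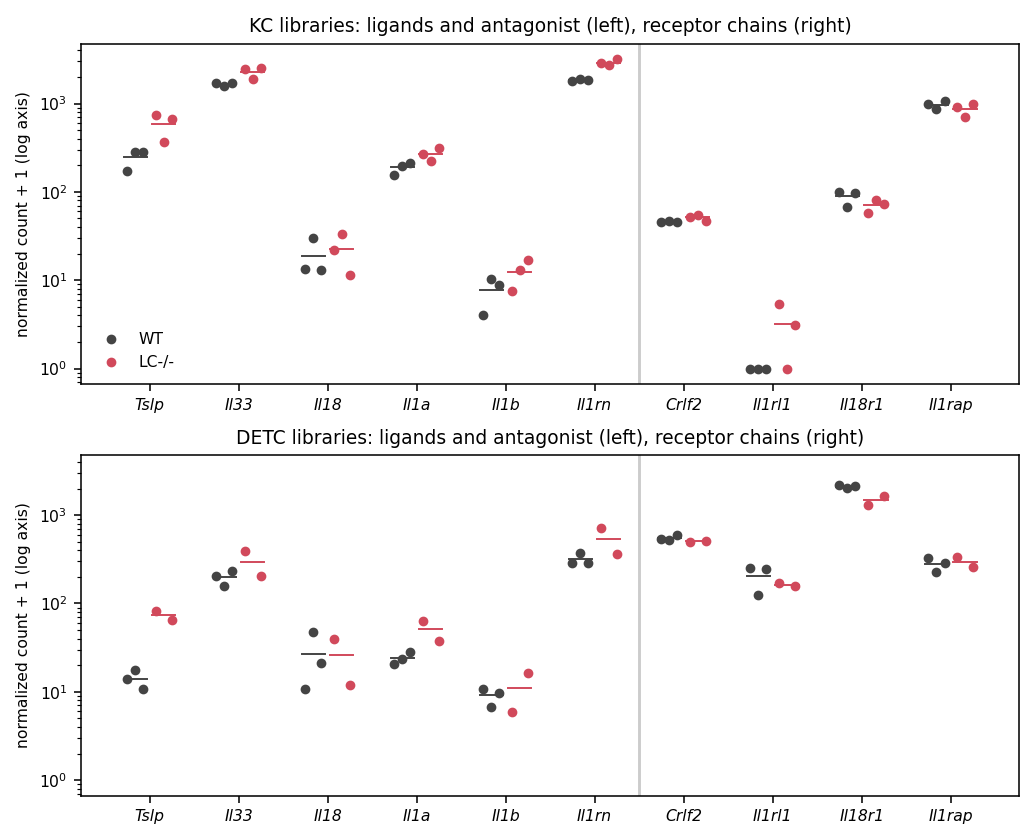
Normalized count plus 1 of the 10 members on a log axis, in KC libraries (top) and DETC libraries (bottom), with 1 point per library and a line at the group mean of WT (grey) and LC-/- (red) libraries. Tslp, Il33, Il1a and Il1rn sit higher in the top panel, Crlf2, Il1rl1 and Il18r1 sit higher in the bottom panel, and Il18 and Il1b stay below 50 in both.

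Among the ligands, Il33 had the highest level per length in WT KCs. Il33, a nuclear cytokine released from damaged cells (chromosome 19, 29925114 to 29960718, GRCm38), had normalized counts of 1687, 1564 and 1711 in the WT KC libraries W1, W2 and W3 and of 203.0, 156.8 and 232.4 in the WT DETC libraries. Every KC library was above every DETC library, with a log2 difference of -3.08 ± 0.13 (SE, limma, adjusted p = 2.63e-08). Tslp, the ligand of the Crlf2 receptor (chromosome 18, 32815383 to 32819797), stood at 172.2, 281.0 and 283.5 in WT KCs and at 13.1, 16.5 and 9.72 in WT DETCs. Its log2 difference of -4.12 ± 0.27 was the largest of the 5 members that were lower in DETCs (limma, adjusted p = 4.59e-07).

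Il1a, whose product is active as the precursor (chromosome 2, 129299610 to 129309972), had 154.7, 196.6 and 213.5 counts in WT KCs and 19.6, 22.3 and 27.2 in WT DETCs. The groups did not overlap, and the log2 difference was -2.98 ± 0.20 (limma, adjusted p = 6.65e-07). An exon of Gm14023 overlaps Il1a by 222 bases on the other strand, and the strand setting of the counting is not given in the sources used here. Il1b lies 65.0 kb from Il1a on the same strand. It had 3 to 15 reads in each KC library and 5 to 14 in each DETC library, or 3.07 to 15.8 and 4.85 to 15.5 normalized counts, so that the population and genotype groups all overlapped. Il1rn, the antagonist (chromosome 2, 24336853 to 24351494), had 1819, 1880 and 1825 counts in WT KCs and 287.0, 370.5 and 285.9 in WT DETCs, a log2 difference of -2.56 ± 0.10 (limma, adjusted p = 1.85e-08).

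Il18 was low in both populations. This ligand, which caspase-1 cleaves to its active form (chromosome 9, 50554827 to 50581840), had 12.3, 28.8 and 12.1 counts in WT KCs and 9.82, 47.0 and 20.4 in WT DETCs. The groups overlapped, and the 95% interval of the log2 difference ran from -0.86 to 1.59 (limma, adjusted p = 0.552). W2 held the highest Il18 count of the WT libraries in both populations.

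Per kb of exon, the WT KC levels ran from Il33 at 573.0 ± 27.3 (SD, n = 3) through Il1rn at 332.7 ± 6.09 and Tslp at 184.5 ± 47.8 to Il1a at 95.4 ± 15.3 normalized counts. Il1rap followed at 85.2 ± 9.08, and the library ranges of Il1a and Il1rap overlapped. Crlf2 had 30.2 ± 0.768, Il18r1 18.2 ± 3.76, Il18 17.2 ± 9.27 and Il1b 3.52 ± 1.70, and Il1rl1 was at 0 reads in all 3 libraries. Il18r1 and Il18 overlapped in their ranges. On the same scale Il33 stood above 93.2% of the tested genes of the WT KC libraries and Tslp above 77.2%.

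In WT DETCs the order per kb was led by 2 receptor chains, Il18r1 at 437.0 ± 14.0 and Crlf2 at 369.2 ± 23.1, whose ranges did not overlap. The ranges of the next pair, Il33 and Il1rn, overlapped at 68.4 ± 13.2 and 56.8 ± 8.77. Il1rl1 had 29.8 ± 10.2, Il18 25.0 ± 18.6 and Il1rap 24.7 ± 4.37, with overlapping ranges between neighbours. Tslp, at 9.85 ± 2.55, was the lowest but 1, and its range overlapped that of Il1a at 11.7 ± 1.95. In LC-/- KCs the leading 3 were again Il33 (794.9 ± 124.3, n = 3), Il1rn (526.2 ± 40.6) and Tslp (443.5 ± 146.5), with overlapping ranges for Il1rn and Tslp. In LC-/- DETCs Tslp, at 54.7 ± 9.26 (n = 2), was number 5 of the 10 in place of number 9. Il18r1 stood above 88.6% of the tested genes per kb in WT DETCs and Crlf2 above 86.5%.

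The receptor chains parted as follows. Crlf2, the TSLP-binding chain (chromosome 5, 109554709 to 109558993), had 45.1, 46.4 and 44.1 counts in WT KCs and 542.3, 523.2 and 590.3 in WT DETCs, a log2 difference of 3.58 ± 0.11 (limma, adjusted p = 4.03e-09). Its partner Il7r was at 1.02, 0 and 0 counts in WT KCs, the first from a single read, and at 1654, 1671 and 1866 in WT DETCs. DETC libraries thus held transcripts of both chains of the TSLP receptor. For the numbers with both libraries, Crlf2 in KC libraries was at 7.47% to 10.9% of the DETC level while Il7r was at no more than 0.218%.

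Il1rl1, the ST2 receptor of IL-33 (chromosome 1, 40429570 to 40465415), had 0 reads in the 3 WT KC libraries and 248.8, 123.8 and 243.1 counts in WT DETCs. Set against a floor of 3 reads in each KC library, WT DETCs were at least 72.9-fold higher. In LC-/- KCs it had 4 reads in L1, 0 in L2 and 2 in L3. Il1rap, the co-receptor that ST2 and Il1r1 share (chromosome 16, 26581704 to 26730117), was higher in KCs, with 989.9, 856.1 and 1059 counts against 326.3, 227.8 and 287.8 in WT DETCs. The log2 difference was -1.79 ± 0.14 (limma, adjusted p = 1.49e-06). In DETC libraries Il1rap stood at 26.6% to 47.0% of its KC level, above the keratinocyte share in all 5. Each value lay below the highest single keratinocyte marker of its library, which was at 41.6% to 64.6%. Exons of Il1rap share 552 bases with Gm20319 on the other strand.

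Il18r1, the IL-18-binding chain (chromosome 1, 40465552 to 40500854), had 99.4, 66.8 and 96.8 counts in WT KCs and 2168, 2034 and 2113 in WT DETCs. The log2 difference was 4.59 ± 0.14 (limma, adjusted p = 3.47e-09). Its partner Il18rap had 0, 0 and 0.864 counts in WT KCs and 857.7, 765.0 and 1043 in WT DETCs. For the numbers with both libraries, Il18r1 in KC libraries was at 3.28% to 6.12% of its DETC level and Il18rap at no more than 0.0828%. The 2 chains of the IL-18 receptor thus did not stand in the same ratio between the populations. The KC library L1, without a DETC library, had the highest Il18rap count of the KC libraries, 2.20. The binding protein Il18bp had 26.8 to 39.0 counts in WT KCs and 25.6 to 38.2 in WT DETCs, which overlapped.

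Il1rl1 and Il18r1 lie in a row of 6 receptor genes on the plus strand of chromosome 1, from 40074079 to 40551705 in GRCm38. The order is Il1r2, Il1r1, Il1rl2, Il1rl1, Il18r1 and Il18rap, with the first 3 higher in KCs and the last 3 higher in DETCs. The first 3 genes, which encode the IL-1 decoy receptor, the IL-1 receptor and the IL-36 receptor, had 613.3, 162.3 and 378.1 normalized counts per kb in WT KCs and 187.1, 68.4 and 57.6 in WT DETCs. The last 3 had 0, 18.2 and 0.0427 per kb in WT KCs and 29.8, 437.0 and 131.6 in WT DETCs. All 6 differed between the WT populations (limma, adjusted p from 3.47e-09 to 2.94e-06), as did 76.0% of all genes. Il1rl1 and Il18rap, with at most 4.41 and 2.20 counts in any KC library, passed the filter through the DETC libraries alone, which fixed their direction. Il1r1 itself stood at 25.0% to 52.6% of its KC level in the DETC libraries and Il1r2 at 19.6% to 38.3%, above the keratinocyte share in all 5. Il1rl2 stood at 13.3% to 27.3%, above it in 2 of 5. All of these values lay below the highest single keratinocyte marker of their library.

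**Figure D2:**
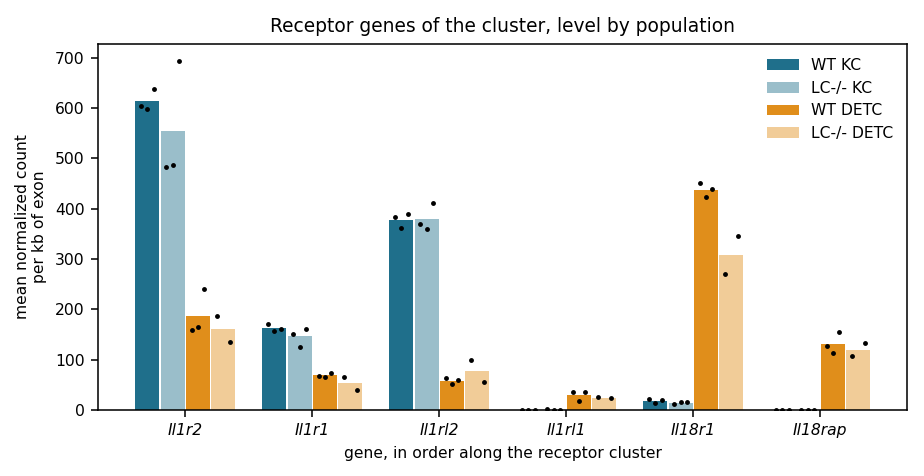
Mean normalized count per kb of exon (bars) and single libraries (points) of the 6 receptor genes in their order along the cluster, for WT and LC-/- KCs (blue) and DETCs (orange). Il1r2, Il1r1 and Il1rl2 are higher in KCs, and Il1rl1, Il18r1 and Il18rap in DETCs.

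The next comparison asked how far the ligand transcripts in DETC libraries exceeded the level that keratinocyte markers showed there. Tslp in DETC libraries was at 7.61%, 5.87% and 3.43% of the KC library of the same number in W1, W2 and W3, and at 22.1% and 9.69% in L2 and L3. All 5 values were below the keratinocyte share of the library. Il33 ranged from 8.13% to 20.6% and was also below the share in all 5. Il1a, at 11.3% to 28.2%, exceeded the share in L2 alone. Il1rn, at 11.5% to 25.8%, exceeded it in 3 of 5. The DETC library L2 had the highest percent of all these genes and the highest keratinocyte share.

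**Figure D3:**
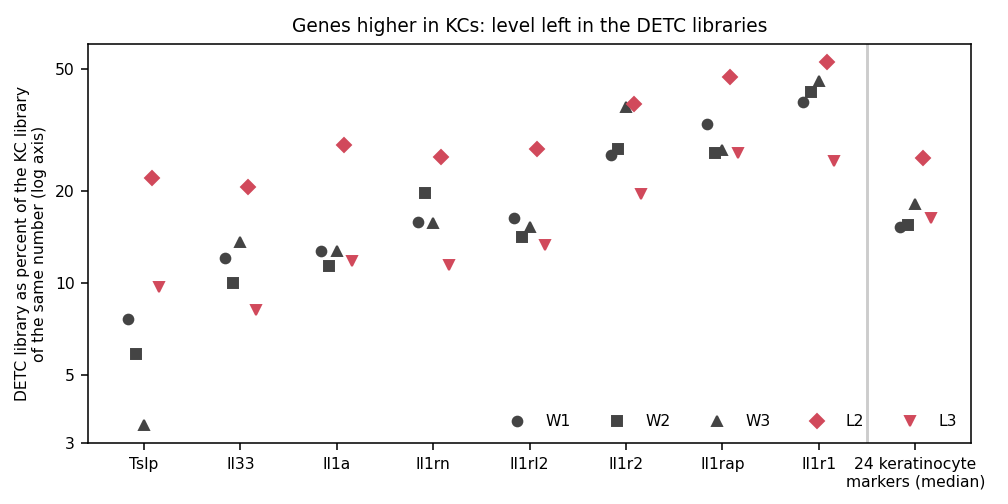
Count in each DETC library as a percent of the KC library of the same number, on a log axis, for genes that were higher in KCs, and at the right the median over 24 keratinocyte markers (15.3% to 25.5%). Tslp and Il33 lie below the marker median of their library, Il1rap, Il1r1 and Il1r2 lie above it, and L2 (red diamonds) is the highest of the 5 in every column.

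LC-/- and WT mice were then compared within each population. In LC-/- KCs Il1rn rose, the 1 member of 9 called at an adjusted p under 0.05 (limma, over all tested genes), where 7.23% of all genes were called and 5.37% were called higher. Tslp, Il33 and Il1a missed the threshold by limma and passed it by 2 count tests on recovered reads. The 4 genes Tslp, Il33, Il1a and Il1rn were each higher in every LC-/- KC library than in every WT KC library, as were 16.6% of all tested genes. These 4 members were called higher by edgeR, of 9, and by DESeq2, of the 7 for which it gave an adjusted p, where 8.27% of all genes were so called by edgeR and 8.55% by DESeq2. The median log2 difference of the 9 members was 0.46 in KCs, beside -0.01 over all tested genes. Il1rl1 is among the 9, although it had 0 reads in WT KCs and at most 4 in LC-/- KCs. It passed the filter through the DETC libraries alone, so the median and the 9 include a gene without a usable level in KCs.

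Il1rn had 1819, 1880 and 1825 counts in WT KCs W1, W2 and W3 and 2840, 2733 and 3165 in LC-/- KCs L1, L2 and L3. The genotypes were apart by more than the spread of either, with a log2 difference of 0.66 ± 0.06 (SE, 95% interval 0.50 to 0.81, limma, adjusted p = 0.0193). The call was lost without W1, L1 or W2 (adjusted p = 0.0768, 0.0806 and 0.0778), while the difference itself stayed between 0.65 and 0.68 there.

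WT KC libraries had 172.2, 281.0 and 283.5 counts of Tslp, and the LC-/- libraries L1, L2 and L3 had 739.2, 369.5 and 662.0. L2 was the lowest LC-/- library and still lay above every WT library. The log2 difference was 1.24 (95% interval 0.38 to 2.10), with an adjusted p of 0.0950 by limma, 0.00330 by edgeR and 0.00765 by DESeq2. Il33 had 1687, 1564 and 1711 counts in WT and 2485, 1880 and 2517 in LC-/- KCs. L2 was again the lowest of the LC-/- libraries, and the log2 difference was 0.46 (0.14 to 0.78), with an adjusted p of 0.0944 by limma, 0.00956 by edgeR and 0.000677 by DESeq2. Il1a had 154.7, 196.6 and 213.5 counts in WT and 267.7, 223.9 and 310.0 in LC-/- KCs. The log2 difference was 0.50 (0.06 to 0.95), with an adjusted p of 0.149 by limma, 0.0426 by edgeR and 0.0249 by DESeq2. Il18, at 12.3, 28.8 and 12.1 in WT and 20.9, 32.6 and 10.5 in LC-/- KCs, overlapped between the genotypes, and its interval of -1.09 to 1.56 included differences in either direction.

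The bases before the start sites of 3 of these ligand and antagonist genes are shown because their transcripts were higher together, without overlap, in LC-/- KCs. Each run is the 150 bases before a RefSeq start (GRCm38.p6), 5′ to 3′ in the direction of transcription, with matches in capitals. Of the 10 members, 9 had an entry in that table. Searched on both strands were the AP-1 motif TGAGTCA, the TATA motif TATAAA and the octamer ATGCAAAT.

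Il1a, minus strand, chr2:129309973-129310122: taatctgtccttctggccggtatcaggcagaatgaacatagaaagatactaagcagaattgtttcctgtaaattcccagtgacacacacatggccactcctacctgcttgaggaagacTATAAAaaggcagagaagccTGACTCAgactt

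Il1rn, first start, plus strand, chr2:24336710-24336859: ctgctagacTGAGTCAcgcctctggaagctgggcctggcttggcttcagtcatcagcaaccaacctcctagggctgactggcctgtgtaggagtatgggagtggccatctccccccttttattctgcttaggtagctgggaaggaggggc

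Il33, first start, plus strand, chr19:29924963-29925112: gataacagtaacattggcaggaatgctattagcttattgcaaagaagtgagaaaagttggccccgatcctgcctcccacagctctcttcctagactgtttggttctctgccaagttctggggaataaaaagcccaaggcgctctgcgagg

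Il33, second start, plus strand, chr19:29945640-29945789: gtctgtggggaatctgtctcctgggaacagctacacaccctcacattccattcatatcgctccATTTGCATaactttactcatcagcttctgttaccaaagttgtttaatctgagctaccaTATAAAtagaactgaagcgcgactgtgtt

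The AP-1 letters began 12 bases before the start of Il1a and 141 bases before the first start of Il1rn, and 2.84% of all 32851 windows of this length held them. The TATA letters began 32 bases before the start of Il1a and 29 bases before the second start of Il33, against 7.57% of all windows. The octamer began 87 bases before that second Il33 start, against 0.998% of all windows. The first start of Il33 held none of the 3. The later starts of Il1rn, with windows that begin at 24345141 and 24345221, held none of them either and are not printed. Il1b also had the TATA letters, 31 bases before its start, Il18 had the octamer at 37 and 16 bases, and Il1rl1 had it at 36 bases before its first start. These matches are a description of the letters, and gene counts do not tell which start was used.

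The receptor chains in KCs did not pass the test between the genotypes. Crlf2 had 45.1, 46.4 and 44.1 counts in WT and 50.7, 54.0 and 46.2 in LC-/- KCs, which overlapped (log2 difference 0.15, 95% interval -0.13 to 0.43, limma, adjusted p = 0.453). Il18r1 had 66.8 to 99.4 in WT and 57.3 to 79.4 in LC-/- KCs, and Il1rap 856.1 to 1059 and 704.4 to 982.5. Their intervals of -0.87 to 0.22 and -0.55 to 0.22 included 0.

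In LC-/- DETCs Tslp rose, again 1 member of 9 (limma), where 3.56% of all genes were called and 3.13% were called higher. It had 13.1, 16.5 and 9.72 counts in the WT DETC libraries and 81.6 and 64.1 in L2 and L3. The log2 difference was 2.41 ± 0.34 (SE, 95% interval 1.63 to 3.18, limma, adjusted p = 0.0168), and edgeR and DESeq2 called it too (adjusted p = 0.0142 and 4.78e-06). The keratinocyte share was highest in L2, at 25.5%, and in L3, at 16.3%, it lay inside the WT range of 15.3% to 18.1%. The KC count of Tslp of the same number times that share came to 26.3, 43.4 and 51.2 in W1 to W3 and to 94.2 and 108.1 in L2 and L3, above the Tslp count of the DETC library each time. The part of keratinocyte transcripts in the Tslp difference of DETCs was not tested. Without W3, L2 or the mean-variance trend the call was lost (adjusted p = 0.0626, 0.102 and 0.179), while the log2 difference was 2.22, 2.24 and 2.41.

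Il1a had 19.6, 22.3 and 27.2 counts in WT DETCs and 63.1 and 36.5 in LC-/- DETCs. Both LC-/- libraries were above all WT libraries, as for 21.3% of all tested genes, and the log2 difference was 1.04 (95% interval 0.26 to 1.82, limma, adjusted p = 0.145). The KC count of Il1a times the keratinocyte share came to 23.6, 30.3 and 38.5 in W1 to W3 and to 57.1 and 50.6 in L2 and L3. It was above the Il1a count of the DETC library except in L2. The part of keratinocyte transcripts in the Il1a difference of DETCs was not tested. Tslp and Il1a were thus higher without overlap in the libraries of both populations, as were 7.80% of all tested genes. Il33 had 203.0, 156.8 and 232.4 counts in WT and 387.4 and 204.5 in LC-/- DETCs. Il1rn had 287.0, 370.5 and 285.9 in WT and 705.9 and 362.7 in LC-/- DETCs. For both genes L3 lay inside the WT range and L2, with the highest keratinocyte share, lay above it, and neither was called (limma, adjusted p = 0.349 and 0.201). The median log2 difference of the 9 members in DETCs was 0.08, beside 0.02 over all tested genes.

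Il18r1 had 2168, 2034 and 2113 counts in WT DETCs and 1297 and 1666 in LC-/- DETCs. The genotypes did not overlap, which held in this direction for 16.5% of all tested genes. The log2 difference was -0.52 ± 0.12 (95% interval -0.78 to -0.25, limma, adjusted p = 0.0542), and the adjusted p was 0.0547 by edgeR and 0.00574 by DESeq2. The partner chain Il18rap, at 857.7, 765.0 and 1043 in WT and 728.2 and 890.1 in LC-/- DETCs, overlapped between the genotypes (limma, adjusted p = 0.693). Crlf2 had 542.3, 523.2 and 590.3 in WT and 496.1 and 514.1 in LC-/- DETCs. These did not overlap, but the log2 difference of -0.13 was not called (95% interval -0.36 to 0.11, limma, adjusted p = 0.559). Its partner Il7r, in contrast, fell by 0.70 ± 0.11 on the log2 scale, from 1654, 1671 and 1866 to 1176 and 965.2 counts (limma, adjusted p = 0.0230). Il1rl1 had 248.8, 123.8 and 243.1 counts in WT and 169.9 and 155.9 in LC-/- DETCs, within the WT range. Il18 and Il1rap overlapped too, with intervals of -1.65 to 1.60 and -0.34 to 0.51.

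**Figure D4:**
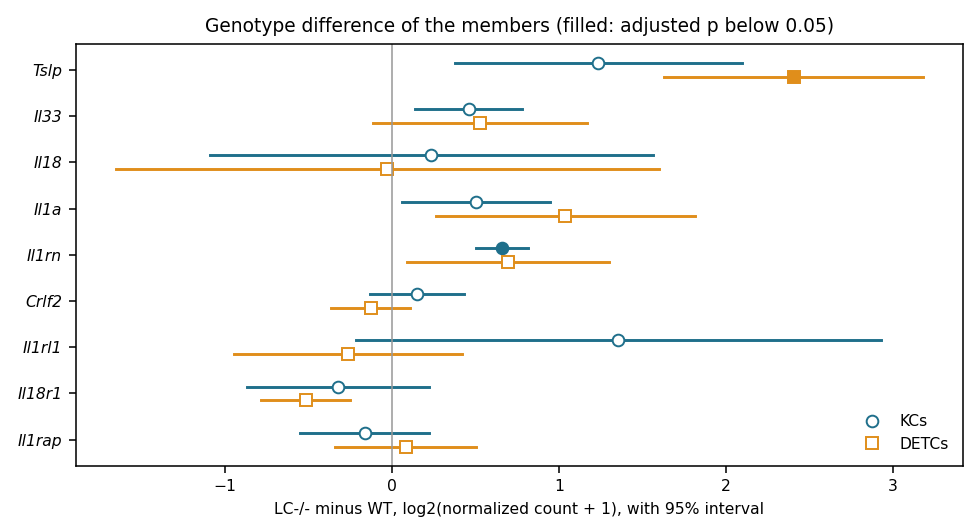
LC-/- minus WT difference in log2(normalized count + 1) with its 95% interval (limma) for the 9 tested members, in KCs (circles) and DETCs (squares), filled where the adjusted p was below 0.05. Only Il1rn in KCs (0.66) and Tslp in DETCs (2.41) are filled, and the intervals of Tslp, Il1a and Il1rn lie above 0 in both populations.

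Whether the genotype difference itself differed between the populations was tested by an interaction term over all 11 libraries. Of the 9 members 0 were called by limma or edgeR, and of the 7 with an adjusted p from DESeq2 0 were called, where limma called 0.798% of all genes. For Tslp the DETC difference minus the KC difference was 1.17 on the log2 scale (95% interval 0.24 to 2.10, limma, adjusted p = 0.317, unadjusted p = 0.0178). It was the 1 member under an unadjusted p of 0.05. The intervals for Il33 (-0.61 to 0.74), Il1rn (-0.58 to 0.65) and Il1a (-0.20 to 1.27) were wide against the differences of the KCs.

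Of 81 genes listed around these receptors, 72 passed the filter. In KCs 9 of the 72 were called higher and 2 lower, where 7.23% of all genes were called and 5.37% called higher, and in DETCs 5 were called higher and 1 lower, against 3.56% and 3.13% of all genes (limma). Their median log2 difference was 0.11 in KCs and 0.08 in DETCs. Among the 7 receptor chains, decoys and binding proteins outside the members, the 1 call in either population was Il7r in DETCs. Il1r1, at 991.5 to 1089 in WT and 797.0 to 1027 in LC-/- KCs, and Il1r2, at 1142 to 1217 and 919.9 to 1322, overlapped between the genotypes. Of 5 other IL-1 family ligands, 2 passed the filter, Il1f9 (IL-36γ) and Il1f5 (the IL-36 receptor antagonist), named here after their values were seen. Both were higher in WT KCs than in WT DETCs (limma, log2 differences -1.93 and -1.05), and neither was called between the genotypes. Il18bp had 32.8, 39.0 and 26.8 counts in WT and 57.3, 59.0 and 53.6 in LC-/- KCs, without overlap, and its log2 difference of 0.78 ± 0.17 had an adjusted p of 0.0560 (limma).

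Genes for processing and release of the IL-1 family gave 2 calls in KCs and 1 in DETCs, of 15 tested, beside 7.23% and 3.56% of all genes. Casp1, the protease for pro-IL-1β and pro-IL-18, had 94.2 to 104.8 counts in WT and 77.1 to 93.5 in LC-/- KCs (limma, adjusted p = 0.221). The inflammasome adaptor Pycard had 540.3 to 688.2 and 404.3 to 530.3 (adjusted p = 0.120), and the sensor Nlrp3 did not pass the filter, with at most 1.05 counts in KCs and 20.6 in DETCs. Capn2, a calpain subunit (calpain cuts pro-IL-1α), rose in LC-/- KCs from 727.6, 777.3 and 1031 to 1671, 1578 and 1481 counts, by 0.91 ± 0.14 (limma, adjusted p = 0.0316). Nlrp10 rose there by 0.26 ± 0.04 (adjusted p = 0.0395). The gasdermin Gsdme, at 0 or 1 read in every KC library, rose in LC-/- DETCs from 972.3, 1385 and 1292 to 2787 and 2549 counts, by 1.15 ± 0.15 on the log2 scale (limma, adjusted p = 0.0155).

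In the signalling chain below the IL-1 and IL-18 receptors, 4 of 14 genes were called in KCs and 1 in DETCs, beside 7.23% and 3.56% of all genes. The ubiquitin ligase Traf6 rose by 0.39 ± 0.07, Tollip by 0.37 ± 0.07 and the adaptor Tab2 by 0.17 ± 0.03, and Tab1 fell by 0.53 ± 0.11 (log2, limma, adjusted p = 0.0371, 0.0415, 0.0471 and 0.0489). In DETCs Peli1, a ubiquitin ligase of this pathway, rose by 0.56 ± 0.11, from 4901, 6012 and 5616 to 7817 and 8354 counts (adjusted p = 0.0368). Among 9 genes below the TSLP receptor, Stat3 rose in both populations, by 0.39 ± 0.05 in KCs (adjusted p = 0.0228) and by 0.75 ± 0.10 in DETCs (adjusted p = 0.0168). Jak2, a kinase of the same list, rose in KCs from 2257, 2360 and 2866 to 4409, 3634 and 4859 counts (0.78 ± 0.14, limma, adjusted p = 0.0428). Its log2 difference was 0.01 in DETCs. In KC libraries Il7r, a chain of the TSLP receptor, had at most 2.10 counts.

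Among 14 tested genes proposed to act on Tslp in KCs, F2rl1, which encodes the protease receptor PAR2, rose in both populations. It had 3875, 3708 and 4076 counts in WT and 4959, 4822 and 5297 in LC-/- KCs (0.37 ± 0.06, limma, adjusted p = 0.0289), and 1335, 1684 and 1626 against 3211 and 2414 in DETCs (0.85 ± 0.15, adjusted p = 0.0279). The calcium channel Trpv3 rose in KCs by 0.57 ± 0.07 (adjusted p = 0.0245). Rxra, a retinoid X receptor of the same list, fell in KCs from 3999, 3543 and 3624 to 2669, 2996 and 2672 counts, by 0.42 ± 0.07 (limma, adjusted p = 0.0371).

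Of 11 tested cytokines released downstream of alarmin receptors, all differed between the WT populations, as did 76.0% of all genes (limma). Of these cytokines, 8 were higher in DETCs. Il13, a type 2 cytokine, had 1642, 2389 and 2167 counts in WT DETCs and at most 1 read in any KC library. Il5, Il17a and Ifng were at 0 in every KC library, and Il17f had at most 1.10 counts there. Such genes passed the filter on low values through DETC libraries alone. Their direction was thus fixed in advance, and the count of 8 is no support. Between the genotypes 1 of the 11 was called in DETCs, where 3.56% of all genes were called and 3.13% were called higher. The 1 called was Areg, an epidermal growth factor receptor ligand. Areg rose from 18796, 20232 and 20201 to 29731 and 29740 counts, by 0.59 ± 0.11 (limma, adjusted p = 0.0323). Of the 11, 7 had a log2 difference above 0 in DETCs, and the median was 0.07, beside 0.02 over all tested genes. Il17a and Il17f, which the paper reports as downregulated in DETCs, are named here after their values were seen. Il17a had 270.6 to 500.9 counts in WT and 199.0 to 204.9 in LC-/- DETCs, and Il17f 347.0 to 764.2 and 233.3 to 276.7. Both were lower without overlap, as were 16.5% of all tested genes, and neither was called by limma.

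Genes with the most similar pattern were sought over the 11 libraries after subtraction of each population's mean, among 11283 or 11284 genes with a mean of at least 50. Each ligand's Pearson correlation is a description across libraries that share a scaling. The genotype difference was not subtracted and is part of these correlations. Among those closest to Tslp were Clasp2 (r = 0.979) and Fnip1 (0.966). Il33 was nearest to Akr1b8 (0.966), Eif1a (0.964) and Rnf217 (0.961), and Il1a to Igfbp3 (0.978), Pik3cb (0.972) and Map7 (0.971). For Il18 the nearest were Cdsn (0.939), which encodes a protein of the cornified layer, Lypd5 (0.932) and Mboat2 (0.931).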

How the data were processed

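Poly-A RNA of sorted KCs and DETCs was sequenced in 11 libraries. The authors used cutadapt for trimming, hisat2 for alignment to GRCm38 and featureCounts for counts per gene, with versions and strand setting not given in the sources used here. The deposited values are a signal per gene, the count divided by a median-of-ratios size factor. Every value was a whole number of reads to within 0.00118 after division by the library's step.

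Members and lists were chosen with earlier results of these data known. Genotypes were compared within each population, and populations within each genotype, with limma 3.58.1 (eBayes with trend) on log2(normalized count + 1) in R 4.3.3, so that log2 differences of low genes are understated, with Benjamini-Hochberg adjustment over 14419 genes. The authors describe each point of their principal component plot as a separate animal. Titles number the libraries without saying whether a shared number is the same mouse. The p-values measure the spread between libraries. Alternatives were edgeR 4.0.16 and DESeq2 1.42.0 on recovered reads, other pseudocounts (0.5 and 8), filters and scalings, no trend, 1 fit over 11 libraries and omission of each library. The test scripts were checked on simulated counts. Named were all members, listed pathway genes called between the genotypes, Il1r1, Il1r2, Il18rap, Il18bp, Il7r, Casp1, Pycard and Nlrp3, and 3 genes per ligand with the most similar pattern. A gene that this rule selects is not reported here. Levels per kb and positions used GENCODE mouse release 21, and promoter sequences came from RefSeq.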

Additional observations from a re-analysis of the deposited data

Results flagged for a closer look

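Capn2 had a genotype difference that itself differed between the populations. The DETC difference minus the KC difference was -1.09 on the log2 scale (SE 0.19, 95% interval -1.51 to -0.67, limma interaction term, adjusted p = 0.0238). In KCs it had 727.6, 777.3 and 1031 counts in WT and 1671, 1578 and 1481 in LC-/- libraries, while in DETCs the values of 2337, 2797 and 2580 in WT and 2046 and 2518 in LC-/- libraries overlapped. Of the 72 listed genes tested, 2 were called for the interaction, beside 0.798% of all genes (limma). The other was Socs3, of the list below the TSLP receptor. Socs3 had 9202 to 10435 counts in WT and 6296 to 8614 in LC-/- KCs, and 6939 to 7740 in WT and 9010 to 9660 in LC-/- DETCs. It was not called between the genotypes in either population. Groups of 2 or 3 libraries were too small to test single libraries as outliers.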

How the results depend on the processing

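The 8 members that differed between the populations were called in the same direction under every alternative run. The LC-/- against WT calls depended on the test and on single libraries. In KCs the number of members called was 1 by limma, 4 with a minimum mean of 10, with no filter, with edgeR and with DESeq2, 2 with 1 fit over all 11 libraries, and 0 to 3 with 1 library omitted. In DETCs it was 1, then 2 with TMM scaling, with DESeq2 and with 1 fit over all 11 libraries, 0 without the trend (where 2407 of all genes had an unadjusted p under 0.05), and 0 to 3 with 1 library omitted. Over all genes, calls ranged from 5 without L1 to 1783 with edgeR in KCs (1042 by limma), from 0 without the trend to 1110 with DESeq2 in DETCs (514), and from 18 with the replicate block to 308 with DESeq2 for the interaction (115).

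Changes of sign were confined, among the 9 members and the alternatives run, to differences that were not called. With quantile normalization, which moved the median of all genes to -0.25 and -0.28 in the population comparisons, the Il18 difference became -0.48 in WT and -0.80 in LC-/- libraries. With 1 library omitted, Il18 ranged from -0.12 to 0.65 in KCs, -0.89 to 0.84 in DETCs, -0.18 to 0.89 between WT populations, -0.76 to 0.97 between LC-/- populations and -1.13 to 0.60 in the interaction. Il1rap ranged from -0.089 to 0.25 in DETCs, and in the interaction Il33 ranged from -0.39 to 0.53 and Il1rn from -0.44 to 0.52. The cause was not tested. The keratinocyte share of W2 was 18.6% as a mean of log2 ratios.

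For the numbers shared by KC and DETC titles, deviations from the group means correlated by -0.03 in W1. In the other 4 they correlated by 0.11 to 0.17. Whether a shared number is the same mouse cannot be decided from these values, because KCs and DETCs of the same mouse need not deviate alike. With the number as a replicate block, 8 members were called between the populations in either genotype and 0 for the interaction, and calls over all genes for the interaction went from 115 to 18. Il1b and Il1rl1 in KCs were limited by depth, at 15 reads or fewer.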
